A study of Mus musculus with 4 samples.

Results

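The 10 genes described here encode parts of Nodal signalling. They include the ligands Nodal and Gdf3, the precursor convertases Furin and Pcsk6, the co-receptor Tdgf1 and the receptors Acvr1b and Acvr2b. The secreted inhibitors Lefty1 and Lefty2 and the nuclear partner Foxh1 complete the list. The genes were listed by function, with earlier results of these data known. For each, the peaks of the MIXL1 list within 100 kb of the gene span were collected. This gave 18 of the 9598 deposited peaks. MIXL1, a homeodomain protein of the paired type, is made in the primitive streak, and its binding sites were mapped by FLAG chromatin immunoprecipitation and sequencing in 2 libraries, with 2 libraries of input chromatin made from the same kind of cells. All 4 libraries came from mouse epiblast stem cells, a cultured pluripotent cell type of the post-implantation epiblast, that carried an inducible Mixl1 gene with the FLAG tag. The cells had been maintained on irradiated mouse embryonic fibroblasts with bFGF at 10 ng/mL and activin A at 20 ng/mL, then formed embryoid bodies in serum for 2 days, with doxycycline at 1 µg/mL during the final 24 h. The peaks are therefore those of an induced, tagged protein, and activin A itself signals through the receptors that Nodal uses. How many inducible lines were used is not given in the sources used here, and cells without doxycycline were not analysed here.

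Nodal is made as a precursor that proprotein convertases such as Furin and Pcsk6 cleave. The mature ligand, with the co-receptor Tdgf1 (Cripto), engages type I and type II activin receptors, and the activated SMAD proteins act in the nucleus with the forkhead factor Foxh1. In the mouse embryo this pathway induces the primitive streak, the mesoderm and the definitive endoderm, and among its targets are Nodal itself and the Lefty genes, whose products block the ligand. Mixl1 is also a target of the pathway in the mouse.

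The deposited data are 1 list of positions on mm10, with no score or height per peak and no separation by library, so sequencing depth is unknown and no value below has a replicate error. Of the 9598 peaks, 9403 lay on the 19 autosomes and chromosome X and were set against 21523 protein-coding genes. The cell type could not be checked against marker expression, since binding positions carry none.

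Sequence under the peaks was not available as such, but RefSeq promoter windows (GRCm38.p6, the assembly that mm10 denotes, 250 bases before to 50 after each gene start) were listed for 6 of the 10 genes. The windows of Nodal (chr10:61417722-61418021, plus strand) and Tdgf1 (chr9:110946109-110946408, minus strand) are shown because peaks lay close upstream of both starts. The window of Cer1 (chr4:82885102-82885401, minus strand), which encodes another secreted Nodal inhibitor, is shown because a peak covered all 300 bases of it. In these 3 windows capitals mark TAAT and its reverse complement ATTA, the core half-site of homeodomain proteins.
Nodal: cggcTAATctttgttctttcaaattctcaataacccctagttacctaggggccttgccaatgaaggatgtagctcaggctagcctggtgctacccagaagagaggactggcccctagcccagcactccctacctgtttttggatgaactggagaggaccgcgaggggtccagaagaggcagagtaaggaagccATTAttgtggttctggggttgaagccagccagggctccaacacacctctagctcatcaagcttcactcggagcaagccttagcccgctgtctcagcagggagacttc
Tdgf1: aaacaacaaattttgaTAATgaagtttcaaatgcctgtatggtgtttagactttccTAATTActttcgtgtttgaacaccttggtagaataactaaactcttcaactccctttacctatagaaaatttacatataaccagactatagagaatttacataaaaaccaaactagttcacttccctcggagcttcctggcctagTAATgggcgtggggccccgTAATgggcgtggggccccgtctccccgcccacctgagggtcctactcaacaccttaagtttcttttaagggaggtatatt
Cer1: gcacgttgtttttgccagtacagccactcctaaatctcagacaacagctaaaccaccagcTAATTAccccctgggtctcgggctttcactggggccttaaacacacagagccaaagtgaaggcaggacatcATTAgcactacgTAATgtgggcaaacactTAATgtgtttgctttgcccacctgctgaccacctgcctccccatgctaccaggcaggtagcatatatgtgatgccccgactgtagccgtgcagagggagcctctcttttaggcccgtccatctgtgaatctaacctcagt

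Within 100 kb of the 10 genes, 1 promoter window of the table was overlapped by a peak, that of the noncoding gene AU021063 beyond the far end of Acvr1b (chr15:101220997-101221296, plus strand). It is shown because its first 64 bases, in capitals, are sequence inside the nearer of 2 MIXL1 peaks there.
AU021063: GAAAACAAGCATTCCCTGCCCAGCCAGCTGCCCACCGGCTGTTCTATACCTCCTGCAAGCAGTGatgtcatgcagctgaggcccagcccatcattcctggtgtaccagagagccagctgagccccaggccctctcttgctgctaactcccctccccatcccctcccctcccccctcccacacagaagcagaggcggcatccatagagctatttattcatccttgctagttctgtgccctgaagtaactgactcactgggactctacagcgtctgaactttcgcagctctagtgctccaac

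Peaks lay close to most of these genes. A peak was found within 100 kb of 9 of the 10, against 52.8% of all protein-coding genes, and inside or within 10 kb of 7 of the 10, against 19.1%. The 7 were Nodal, Tdgf1, Lefty1, Lefty2, Foxh1, Acvr1b and Pcsk6. In 3 of them, Foxh1, Acvr1b and Pcsk6, a peak overlapped the gene span, against 12.6% of all protein-coding genes. At 100 kb a peak is common for any gene, so the count of 9 stands nearer to its background than the count of 7. The median distance from the gene span to the edge of the nearest peak was 4.02 kb for the 10 genes and 89.3 kb for all protein-coding genes. With only the peaks wider than the list's median, 3 of the 10 genes had a peak inside or within 10 kb, against 10.0% of all protein-coding genes, and the medians were 45.2 and 209.7 kb. The genes were chosen with earlier results of these data known, so these counts are descriptions and were not tested.

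**Figure D1:**
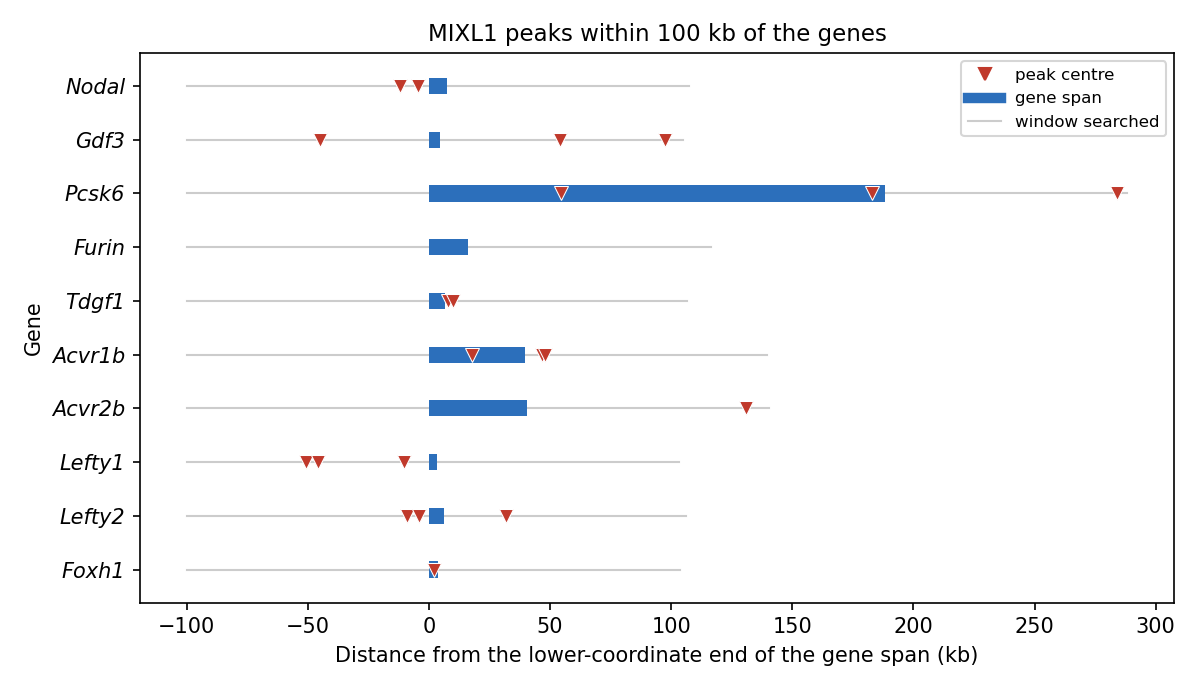
Position of each MIXL1 peak (triangles, peak centre) relative to the lower-coordinate end of the gene span (0 kb), with the gene span as a bar and the window of 100 kb on both sides as a line, for 10 genes of Nodal signalling. Furin has no peak in its window, the peaks of Nodal, Tdgf1 and Lefty2 sit close to the gene, and Lefty1 and Lefty2 share the same 3 peaks.

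The ligand gene Nodal (gene ID 18119, chromosome 10, 61417972 to 61425338) had 2 peaks, both upstream of its start. The nearer, at chr10:61413161-61413641, was 481 bp wide and ended 4.33 kb before the start, and the farther, at chr10:61405548-61406425, was 878 bp wide and ended 11.5 kb before it. The gap between them was 6.74 kb, and no protein-coding gene lay between either peak and Nodal. On the downstream side the next peak was 105 kb away, just beyond the window. Enhancers of mouse Nodal are known upstream of the gene and in its first intron; their coordinates were not in the tables used here, and the overlap with the peaks was not examined. No peak overlapped the gene span or its promoter window.

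Gdf3 (gene ID 14562, chromosome 6, 122605403 to 122610087) encodes a ligand of the same superfamily that pluripotent cells express. It had 3 peaks within 100 kb, as many as Acvr1b, but none of them within 10 kb. The nearest, at chr6:122560044-122560654, lay 44.7 kb away. On the other side, a peak at chr6:122659310-122659889 lay 49.2 kb from Gdf3 and 29.0 kb from the pluripotency gene Dppa3, and a peak at chr6:122702407-122702898 lay 92.3 kb from Gdf3 and 4.59 kb from Nanog, which encodes a homeodomain factor of pluripotent cells. None of the 3 peaks had Gdf3 as its nearest protein-coding gene.

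The convertase genes differed. Pcsk6 (gene ID 18553, chromosome 7, 65862136 to 66050386), with a span of 188 kb much the longest of the 10, held 2 peaks. One, at chr7:65916601-65916948, lay 54.5 kb downstream of the gene start, and the other, at chr7:66044738-66045206, lay 183 kb downstream, its centre 5.41 kb from the far end. The remaining peak of its window, at chr7:66145915-66146616, was 95.5 kb beyond the gene and inside Chsy1, a chondroitin synthase gene, with Snrpa1 and Selenos in between. Upstream of the Pcsk6 start the next peak was 407 kb away.

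Furin (gene ID 18550, chromosome 7, 80389194 to 80405441) was the 1 gene of the 10 without a peak in its window. Its nearest peak, at chr7:80174836-80175308, lay 214 kb away, and the next on the other side lay 341 kb away inside Iqgap1, so that Furin sat in a stretch of 571 kb without a peak that held 15 protein-coding genes, Furin included. Of the 9383 gaps between neighbouring peaks, 11.5% were as long, and 72.0% of protein-coding genes had a peak as near as Furin or nearer. The threshold of the list is not known, so the list says only that no peak there passed it.

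Tdgf1 (gene ID 21667, chromosome 9, 110939608 to 110946158) encodes the Nodal co-receptor Cripto. Its nearest peak was the closest to a gene of the group among the peaks outside gene spans. A peak of 620 bp at chr9:110947331-110947950 began 1.17 kb upstream of the start and a peak of 384 bp at chr9:110949183-110949566 began 3.03 kb upstream, with 1.23 kb between them. The farther one was nearer to the neighbouring gene Lrrc2, at 1.98 kb. Beyond the other end of Tdgf1 no peak was listed for 257 kb.

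The promoter window of Tdgf1 printed above began 0.923 kb from the nearer peak and held 5 matches of TAAT or ATTA, of which a pair overlap as TAATTA. At least 5 matches were found in 6.86% of the 32851 promoter windows of the table. That share was not adjusted for base composition: the GC content was 41.7% in the Tdgf1 window, against a median of 52.7% over all windows. Of the 5 matches, 2 lay in a stretch repeated in tandem. The Tdgf1 window also held 2 matches of TGTNNATT (or AATNNACA), a loose pattern for FOXH1 sites that allows any base at N. Both read AATTTACA, and whether FOXH1 binds these letters was not examined. At least 1 match occurred in 12.2% of windows, and the share with at least 2 is not given here. The Nodal window held 2 matches of TAAT or ATTA and none of TGTNNATT. At least 2 matches of TAAT or ATTA were found in 34.1% of windows. The Cer1 window, all inside a peak, held 5 matches of TAAT or ATTA, again with a pair that overlap, while the 64 bases of AU021063 inside a peak held none. A TAAT followed by an ATTA after 2 or 3 bases, the inverted pair of half-sites to which paired-type homeodomains bind as dimers, was absent from the promoter windows of the 6 listed genes and from those of Cer1 and AU021063. All motifs were searched on both strands, and a match is only a match of letters.

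Acvr1b (gene ID 11479, chromosome 15, 101174072 to 101213684) encodes a type I activin receptor. It had 1 peak inside the gene, of 416 bp at chr15:101191625-101192040, 17.6 kb downstream of the start. A pair of peaks 0.515 kb apart lay beyond its far end, at chr15:101220807-101221060 and chr15:101221575-101222105, 7.12 and 7.89 kb from the gene. That pair was nearer to Grasp, the gene of a scaffold protein, at 3.15 and 2.10 kb, and the second peak overlapped the noncoding genes AU021063 and A330009N23Rik. The first of the pair, 254 bp wide, was among the narrowest of the list, as only 4.11% of peaks were as narrow.

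Acvr2b (gene ID 11481, chromosome 9, 119401583 to 119442148), which encodes a type II activin receptor, had 1 peak, 89.6 kb beyond its far end, at chr9:119531745-119533014. At 1270 bp it was the widest of the 18. For comparison, 50.1% of protein-coding genes had a peak as near or nearer.

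The inhibitor genes Lefty1 (gene ID 13590, chromosome 1, 180935022 to 180938401) and Lefty2 (gene ID 320202, chromosome 1, 180893108 to 180899107) are neighbours and share their 3 peaks, so their counts are not independent. A pair of peaks lay on the lower-coordinate side of Lefty2, at chr1:180888813-180889400 and chr1:180883564-180884695, 3.71 and 8.41 kb from it and 4.12 kb apart. The remaining peak, at chr1:180924679-180925058, lay 9.96 kb from Lefty1 on its lower-coordinate side and 25.6 kb from Lefty2. The strand of both genes was not in the tables used here. Lefty1 passes the 10 kb limit by the edge of this peak alone, since the peak's centre was 10.2 kb away. Beyond Lefty1 no further peak was listed for 560 kb.

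Foxh1 (gene ID 14106, chromosome 15, 76667829 to 76671614) encodes the forkhead factor that takes SMAD complexes to DNA. Its single peak, of 415 bp at chr15:76669568-76669982, lay within the gene, whose span is only 3.79 kb, and overlapped no other annotated gene. The window of Foxh1 was crowded with 15 other protein-coding genes but held no other peak, and the nearest ones outside it were 105 and 145 kb away. The closest peaks left out by the 100 kb limit were those of Nodal and Foxh1 at 105 kb, and the farthest that it let in was that of Pcsk6 at 95.5 kb. Between 100 and 250 kb lay 10 more peaks.

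**Figure D2:**
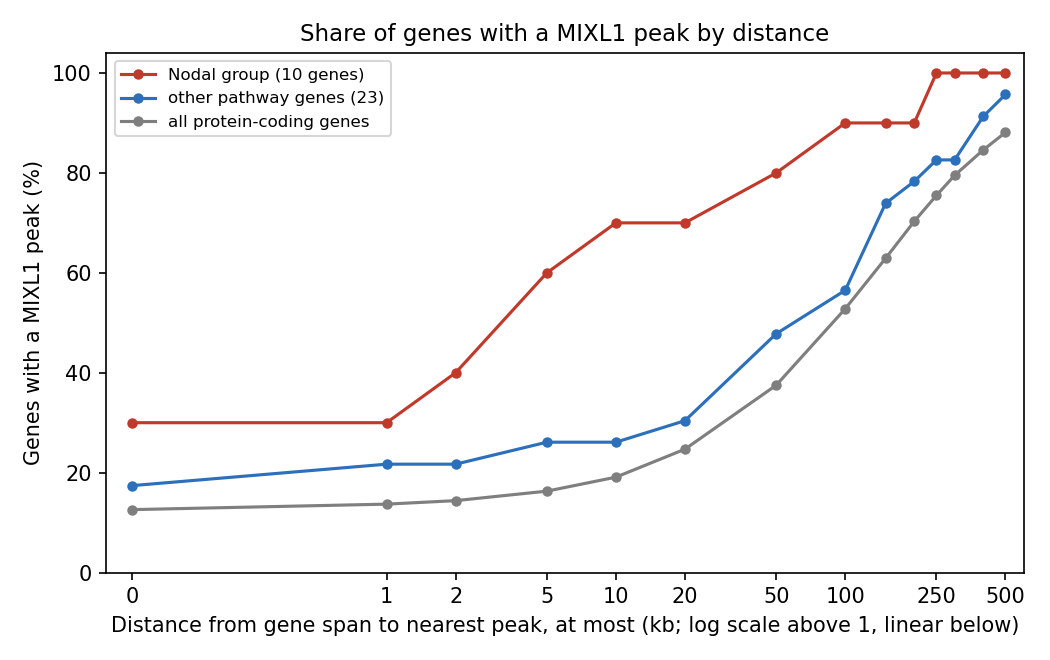
Percentage of genes with a MIXL1 peak at most the given distance from the gene span (x axis in kb, log scale above 1 kb), for the 10 genes of Nodal signalling, 23 other genes of the pathway and all 21523 protein-coding genes. The 10 genes lie at 70.0% at 10 kb, where the other pathway genes are at 26.1% and all protein-coding genes at 19.1%. At 100 kb the values are 90.0, 56.5 and 52.8%. Both gene lists were chosen with earlier results of these data known.

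The share of the 10 genes with a peak lay above that of all genes at each distance up to 100 kb that was computed. At 0 kb it was 30.0% against 12.6% of all protein-coding genes, and at 2 kb 4 of the 10 genes had a peak, against 14.4%. At 5 kb it was 60.0% against 16.3% of all protein-coding genes, at 20 kb 70.0% against 24.7%, and at 50 kb 80.0% against 37.5%. Gene length matters here, because longer genes offer more room for a peak. Among genes with a span under 50 kb, which leaves out Pcsk6, 6 of 9 had a peak inside or within 10 kb, against 13.4% of all protein-coding genes of that size.

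Peaks per gene showed the same pattern by distance. In the 10 kb on both sides of the span the 10 genes had a mean of 0.8 peaks per gene, against 0.096 for all protein-coding genes. From 10 to 50 kb the means were 0.5 and 0.376. From 50 to 100 kb they were 0.4 and 0.487, and from 100 to 250 kb 1.1 and 1.5. Thus the number of peaks per gene stood above the mean of all genes near the 10 genes and not farther out. The means count gene and peak pairs, so each of the 3 peaks shared by Lefty1 and Lefty2 enters for both genes. From 10 to 50 kb this adds Lefty1 at 45.6 kb and Lefty2 at 25.6 kb. From 50 to 100 kb it adds Lefty1 at 50.3 kb. The 8 peaks of the first 10 kb belonged to Tdgf1, Lefty2 and Acvr1b, with 2 each, and to Nodal and Lefty1, with 1 each.

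**Figure D3:**
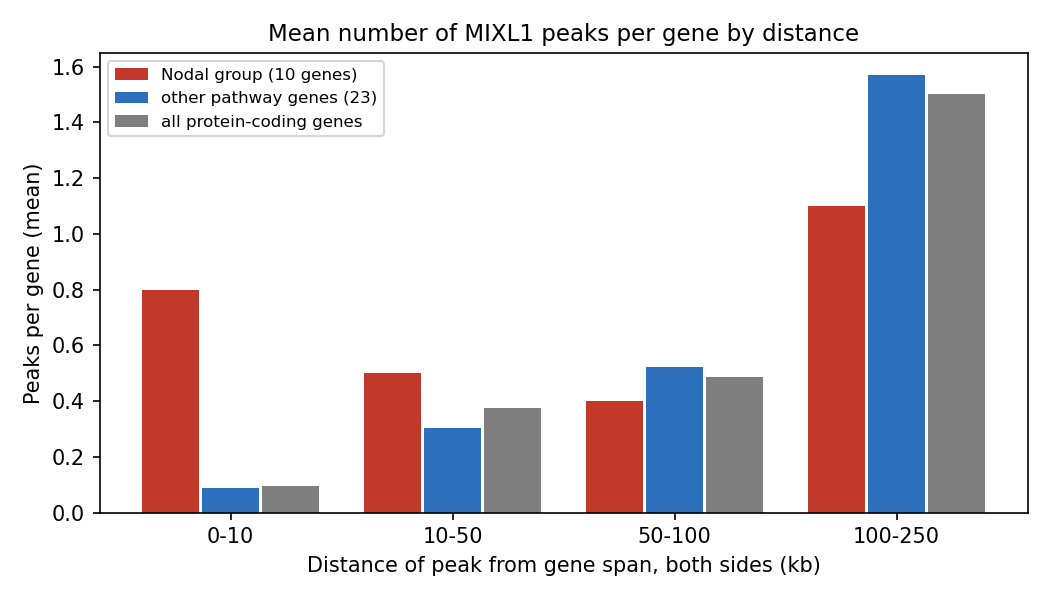
Mean number of MIXL1 peaks per gene in 4 ranges of distance from the gene span, both sides added, for the 10 genes of Nodal signalling (left bars), 23 other genes of the pathway (middle bars) and all protein-coding genes (right bars). In the range of 0 to 10 kb the 10 genes have 0.8 peaks per gene against 0.096 for all genes. From 50 kb outwards their bars are the lowest. Peaks shared by Lefty1 and Lefty2 are counted for both genes, and the gene lists were chosen with earlier results of these data known.

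In number of peaks, 7 of the 10 genes had 2 or more within 100 kb, against 26.7% of all protein-coding genes, and 5 had 3 or more, against 13.7%. The 5 were Gdf3, Pcsk6, Acvr1b, Lefty1 and Lefty2, each with 3. Lefty1 and Lefty2 share the same 3 peaks. At Acvr1b, 2 of the 3 lay 0.515 kb apart and count as 1 when peaks less than 1 kb apart are merged. The windows of the 10 genes, with those of the Lefty pair joined, came to 2.15 Mb with 8.36 peaks per Mb (95% Poisson interval 4.96 to 13.2, counting error only). This interval takes the peaks as independent, but 8 of the 18 had another within 10 kb, so it may be too narrow. The stretches within 100 kb of any protein-coding gene had 4.28 per Mb (4.19 to 4.38), and the 20 chromosomes as a whole 3.66. The 6 chromosomes that carry the genes ranged from 2.51 per Mb on chromosome 15 to 4.06 on chromosome 9. Of these, only chromosome 9 lay above the value for all 20. The values of 4.28 and 3.66 include chromosome 12, which carries none of the 10 genes and had 1541 of the 9403 peaks, at 13.2 per Mb.

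Of the 18 peaks, 10 had one of the 10 genes as their nearest protein-coding gene. These were both peaks of Nodal, all 3 at the Lefty genes, the nearer one of Tdgf1, both inside Pcsk6, and those inside Foxh1 and Acvr1b. The other 8 lay nearest to 7 other genes. No share for the windows of other genes is given here beside the count of 10 peaks. By gene, 7 of the 10 were the nearest protein-coding gene of a peak within 100 kb, against 20.9% of all protein-coding genes. Nearness does not show which gene a bound site acts on.

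Some of the peaks came in close pairs. Another peak within 10 kb was found for 8 of the 18 (44.4%), against 30.3% of all peaks, those of chromosome 12 included. They formed 4 pairs, at Nodal, Lefty2, Tdgf1 and the far end of Acvr1b, with gaps of 6.74, 4.12, 1.23 and 0.515 kb. Whether a pair stands for separate sites or for 1 broad site that the peak caller divided cannot be read from positions alone.

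**Figure D4:**
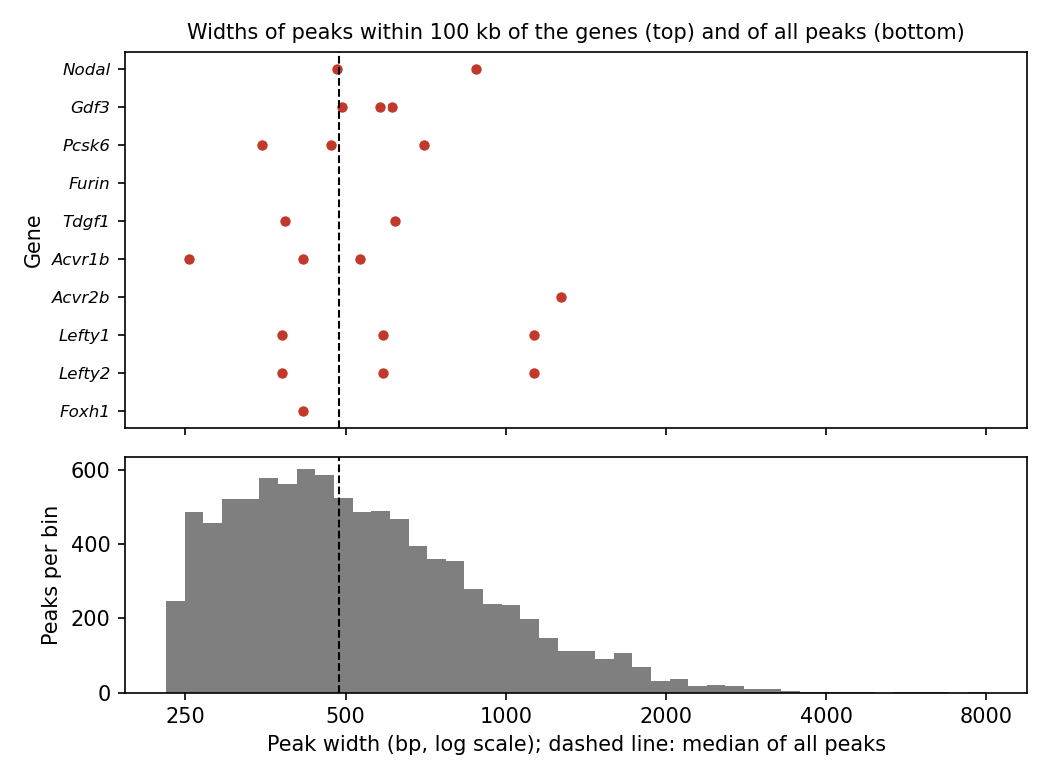
Width in bp (log scale) of each peak within 100 kb of the 10 genes (top, 1 row per gene, peaks shared by Lefty1 and Lefty2 shown in both rows) and of all 9403 peaks (bottom, peaks per bin). The dashed line is the median of all peaks, 485 bp; the peaks near the genes lie on both sides of it, between 254 and 1270 bp.

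Width was the only measure per peak. The 18 peaks had a median width of 512 bp (quartiles 415 and 618 bp), against 485 bp for all peaks (350 and 726 bp), and 10 of the 18 were wider than the median of the list. Beside the peak at Acvr2b, the widest were the farther peak of Lefty2, with 1132 bp, and the farther peak of Nodal, with 878 bp; 91.0% and 83.3% of all peaks were as narrow or narrower. At both genes the nearer peak of the pair was the narrower one, with 588 bp at Lefty2 and 481 bp at Nodal, while at Tdgf1 the nearer peak was the wider. The 4 peaks inside genes of the group were all narrower than the list's median, with 348 and 469 bp in Pcsk6, 415 bp in Foxh1 and 416 bp in Acvr1b.

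The 10 genes and the wider pathway list were chosen with earlier results of these data known. A contrast between the 10 and the rest of the list may therefore partly restate the choice. The 23 further genes of the pathway list stood nearer to the background than the 10. Of these, 13 (56.5%) had a peak within 100 kb, against 52.8% of all protein-coding genes, and 6 (26.1%) inside or within 10 kb, against 19.1%. Their median distance was 54.3 kb, against 89.3 kb for all protein-coding genes. By role, none of the 2 other receptor genes, 1 of the 3 other ligand genes (Inhbb, at 85.2 kb) and 1 of the 4 other inhibitor genes had a peak within 100 kb. That inhibitor gene was Cer1, where a peak of 1476 bp, wider than most (95.6% of peaks were as narrow or narrower), covered the gene start shown above. The other co-receptor gene, Cfc1, had its nearest peak at 14.9 kb, and the other convertase gene, Pcsk5, at 36.7 kb.

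Of 8 genes for intracellular inhibitors, 6 had a peak within 100 kb and 4 inside or within 10 kb, beside 52.8% and 19.1% of all protein-coding genes; these counts are small and were not tested. Smad7, the inhibitory SMAD, and Pmepa1, whose product sequesters receptor SMADs, each had a peak overlapping the gene. Tgif1, a homeodomain corepressor of SMADs, had 4 peaks with the nearest 0.22 kb upstream of its start, and the phosphatase gene Ppm1a had 4 with the nearest at 3.81 kb, on chromosome 12, which had 13.2 peaks per Mb. Ski and Skil, corepressors of SMAD complexes, had 3 and 4 peaks, the nearest at 20.7 and 24.4 kb. Among the transducers Smad4 had a peak of 3151 bp overlapping the gene, Smad3 had one at 22.5 kb and Smad2 one at 54.3 kb, while Drap1, a corepressor that binds Foxh1, had none within 384 kb.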

How the data were processed

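The authors deposited 1 list for the whole series, with the chromosome, start and end of each peak and no score. The submitters' processing notes name mm10 as the build and MACS2, Bowtie2, SAMtools and CASAVA 1.8.2 as tools. The name of the list carries short tags, bl and uniq among them, that may stand for filtering steps and a cutoff. These tags are not explained. The sources used here do not state the threshold for peaks, how they were filtered, what the input served for or whether replicates were pooled. Starts were made 1-based. Gene spans came from the RefSeq table of GRCm38.p6, without genes that start in the first 3 Mb of a chromosome, where the table may also place genes of unplaced scaffolds. Distances run from the gene span to the nearest edge of a peak, 0 where they overlap. Starts and strands came from the RefSeq promoter table where listed; protein sequences were not used here. The 10 genes and the pathway list of 33 genes were chosen with earlier results of these data known, so counts are set beside all protein-coding genes with no test. All 10 genes are described; other pathway genes are named for a peak inside or within 10 kb, for 3 or more peaks within 100 kb, or, chosen after their values were seen, as examples of their role. The distance functions recovered 200 of 200 planted distances on simulated data. Tables and intervals were computed in Python 3.11.15 with pandas 2.3.3, scipy 1.17.1 and numpy 2.4.6, and plots drawn with matplotlib 3.10.9. Some neighbouring genes of the peaks are not reported here.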

Additional observations from a re-analysis of the deposited data

How the results depend on the processing

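The count of the 10 genes with a peak within 100 kb was 8 with a window of 50 kb (37.5% of all protein-coding genes), 10 with 250 kb (75.5%), 8 with peaks wider than the list's median (32.2%) and 7 with each peak given to its nearest protein-coding gene (20.9%). The number of peaks near them was 28 with 250 kb, 10 with the wider peaks and 10 with nearest-gene assignment, against 18 as reported. With peaks less than 1 kb apart merged it was 17. The cut by width leaves 4696 of all 9403 peaks by construction, and 10 of 18 stands near that share. A wider window can only add peaks, and nearest-gene assignment can only remove them. With the wider peaks alone, 3 of the 10 genes had a peak inside or within 10 kb (10.0% of all protein-coding genes). The median distance was then 45.2 kb (209.7 kb for all) and the density in the windows 4.65 per Mb. The density of whole chromosomes with the wider peaks alone was not computed. The value of 4.65 per Mb therefore cannot be set against the densities of the full list. Whether wider peaks are the stronger ones is not known, so they are no stand-in for a stricter threshold. The cause of these changes was not tested. Of 26 distances of single genes under alternatives, 8 were counted as moved, with a limit of 1.5 times. They were those of Nodal, Furin, Pcsk6, Acvr1b, Lefty1 and Foxh1 with the wider peaks, and of Pcsk6 and Acvr1b measured to the gene start. Leaving peaks out can only lengthen a distance. For Pcsk6, Acvr1b and Foxh1 the distance as reported was 0 kb, so a fold is not defined and any longer distance counts as moved. Measured to its start, the nearest peak of Pcsk6 was at 54.5 kb and that of Acvr1b at 17.6 kb. With genes of every type, 7 of the 18 peaks were nearest to one of the 10 genes, against 10 as reported. No paired analysis was possible because the list holds no value per library; for the same reason no replicate could be left out. Depth is unknown, and a gene without a peak, such as Furin, is one where none passed the unknown threshold of the list.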

Other observations

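Across the whole promoter table, 453 of 32851 windows overlapped a peak. A TAAT followed after 3 bases by an ATTA, the inverted pair of half-sites that paired-type homeodomains bind as dimers, was present in 9 of these windows (1.99%), against 0.487% of all windows. With 2 bases between the half-sites the pair was present in 3 of them (0.662%), against 0.39% of all. The half-site TAAT or ATTA was present in 72.6% of the overlapped windows, against 58.0% of all, at a median GC content of 51.7% and 52.7%. TGTNNATT was present in 13.9% against 12.2%, and CAGAC, the SMAD-binding letters, in 54.3% against 49.6%. These shares describe letters in windows of 300 bases and were not tested, and a peak can overlap a window without its centre lying in it.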
